A study of Mus musculus with 6 samples.

Results

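The genes of the MCM helicase and of the proteins that load and activate it were followed in NIH/3T3 cells, an immortalised mouse embryonic fibroblast line, after depletion of *Aldoa*. The group was set by symbol: the hexamer genes *Mcm2* to *Mcm7*, the loading factors *Cdc6* and *Cdt1*, and the helicase activation factors *Cdc45* and *Mcm10*. Of these 10 symbols, 9 had a row among the 18001 genes of the deposited table, and *Cdt1* was not analysed here. The group and the gene lists below were chosen with earlier results of these data known, so their counts of called genes are descriptions. Cells were transfected for 48 h either with non-targeting control siRNAs (siCtrl, siCTR in the library titles) or with siRNAs against *Aldoa* (siAldoa), the gene of the glycolytic enzyme aldolase A. Each group held 3 libraries of poly(A) RNA, both from the same line in serum-containing medium, and no untransfected cells were compared. The labels number the libraries as replicates. The limma, edgeR and DESeq2 p-values below rest on the spread between these libraries, combined with information from all genes. Replicates 1 and 2 of each group differed by little more than counting noise. NIH/3T3 is a single immortal line, and the siRNA design carried no rescue of *Aldoa*.

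During G1 phase the origin recognition complex, Cdc6 and Cdt1 place rings of Mcm2 to Mcm7 around DNA, which licenses an origin for replication. In S phase the kinases Cdc7 and Cdk2 switch the rings on, and Cdc45 and the GINS complex join them to form the moving replicative helicase, with Mcm10 needed for its activation. The genes of these proteins are classical targets of the E2F transcription factors and are expressed when cells prepare to replicate their DNA. Because whole cultures were sequenced, fewer cells in a cell cycle phase and less RNA of a gene per cell cannot be told apart.

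Each library held between 3692341 and 3771129 reads on genes, and values are CPM (reads of a gene scaled to library size) as normalised by the authors. The 9 genes were covered by 86 to 1111 reads per library, and the depth of 3 reads lay between 0.786 and 0.822 CPM. *Aldoa* itself stood at 522, 536 and 545 CPM in the siCtrl libraries. In the siAldoa libraries it stood at 62.9, 69.2 and 72.0 CPM, which is 12.7% of the control mean (limma, log2 fold change -2.96, adjusted p = 1.3e-21). The knockdown was thus seen in every library under its own label. All 8 fibroblast markers examined reached 1 CPM, with summed levels of 13075 to 13612 CPM in siCtrl and 10803 to 11475 CPM in siAldoa (4 called lower and 3 called higher). Markers of other cell types were low, with sums of 6.57 to 10.4 and 1.83 to 4.28 CPM for 3 of 5 epithelial markers, 3.56 to 7.40 and 2.88 to 4.05 CPM for 4 of 5 immune, and 7.40 to 8.47 and 3.47 to 7.56 CPM for 3 of 4 endothelial markers with a row, in siCtrl and siAldoa respectively. The fibroblast and epithelial sums thus moved with the groups, and their part in the results below was not tested.

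All 9 measured genes of the helicase group fell after *Aldoa* depletion. Between 55.7% (*Cdc6*) and 75.8% (*Mcm4*) of the control mean remained. The 95% intervals of these genes, the extremes of the 9, were -1.03 to -0.59 and -0.50 to -0.30 on the log2 scale. Their difference was not tested. Their log2 fold changes had a median of -0.53 (hexamer genes -0.50, the other 3 genes -0.58), while that of all genes tested was -0.0023. All 9 were called lower at an adjusted p under 0.05 by limma on log2(CPM + 1), where 10.0% of all 18001 genes were called lower and 10.4% higher. Among the 6474 genes with a mean CPM at least that of the lowest member, 21.7% were called lower and 18.8% higher. Of all genes 3.58% were called lower with a log2 fold change at or below that of *Mcm4* (-0.40), the hexamer gene with the smallest change. On recovered reads all 9 were also called lower by edgeR, with 10.4% of genes called lower and 10.7% higher, and by DESeq2, with 9.53% lower and 9.10% higher of 11717 genes given an adjusted p. In each of the 9 genes the 3 siAldoa libraries lay below the 3 siCtrl libraries, which held for 17.1% of all genes, while 16.7% were higher without overlap. With 3 libraries against 3, an exact two-sided permutation test of a single gene cannot give a p below 0.1, and it gave 0.1 for each of the 9.

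The hexamer genes encode related ATPases that alternate around the ring. *Mcm2* (ENSMUSG00000002870, chr6:88883474-88898780, minus strand, GRCm38) stood at 154, 170.2 and 152 CPM in siCtrl and at 111, 102 and 106 CPM in siAldoa. The second control library was the highest, yet the groups stayed 41.0 CPM apart, and the means fell from 159 ± 10.0 to 106 ± 4.14 CPM (SD, n = 3, log2 fold change -0.57, SE 0.0577, limma adjusted p = 1.06e-07). *Mcm5*, its neighbour at the gate through which DNA enters the ring (ENSMUSG00000005410, chr8:75109569-75128439, plus strand), stood at 215, 209 and 219 CPM in siCtrl and at 138, 149 and 140.1 CPM in siAldoa. No library of either group came near the other, and the mean fell to 66.5% of control (from 214 ± 4.80 to 142 ± 5.45 CPM, SD, n = 3, log2 fold change -0.59, SE 0.0492, limma adjusted p = 5.52e-09). Of the hexamer genes *Mcm5* had the lowest point estimate, but its 95% interval of -0.69 to -0.48 held the estimates of *Mcm2* and *Mcm3*.

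*Mcm3* (ENSMUSG00000041859, chr1:20802968-20820312, minus strand) stood at 258, 264 and 258 CPM in siCtrl and at 187, 172 and 182 CPM in siAldoa. The control libraries were almost level, and the lowest of them lay 71.0 CPM above the highest siAldoa library (mean 259.8 ± 3.38 against 180.0 ± 7.72 CPM, SD, n = 3, log2 fold change -0.53, SE 0.0463, limma adjusted p = 1.17e-08). *Mcm6*, whose protein belongs with Mcm4 and Mcm7 to the core of the ring (ENSMUSG00000026355, chr1:128331590-128359664, minus strand), stood at 173, 172 and 174 CPM in siCtrl and at 133, 120.0 and 120.4 CPM in siAldoa. Its control libraries were the tightest of the group, the first siAldoa library was the highest of its group, and the mean fell to 72.1% of control (log2 fold change -0.47, SE 0.0538, limma adjusted p = 6.15e-07). *Mcm7* (ENSMUSG00000029730, chr5:138164583-138172422, minus strand) stood at 156, 144 and 156 CPM in siCtrl and at 109, 113 and 113 CPM in siAldoa. Here the second control library was the lowest of its group, and the groups were 31.7 CPM apart (log2 fold change -0.44, SE 0.0543, limma adjusted p = 1.7e-06).

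*Mcm4*, with the highest CPM of the group (ENSMUSG00000022673, chr16:15623897-15637400, minus strand), stood at 296, 288 and 294 CPM in siCtrl and at 238, 208 and 218 CPM in siAldoa. The first siAldoa library was the highest of its group, and 75.8% of the control mean remained (293 ± 4.46 to 222 ± 15.3 CPM, SD, n = 3, log2 fold change -0.40, SE 0.0482, limma adjusted p = 1.3e-06). The summed CPM of the 6 hexamer genes was 1251, 1246 and 1252 in siCtrl and 916, 864 and 879.5 in siAldoa. The control sums thus differed by a few CPM only, and the siAldoa mean was 70.9% of the control mean (exact two-sided permutation test, p = 0.1, the smallest possible). Without replicate 3 in both groups, *Mcm4* had an adjusted p of 0.0554 by limma at a log2 fold change of -0.39.

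*Cdc6*, which with the origin recognition complex recruits the rings and is degraded outside the licensing window, had the lowest fold change of the group. It stood at 49.6, 39.4 and 39.2 CPM in siCtrl and at 24.0, 24.9 and 22.5 CPM in siAldoa (ENSMUSG00000017499, chr11:98907801-98923940, plus strand). The first control library was the highest, and the siAldoa libraries lay at least 14.3 CPM below any control (log2 fold change -0.81, 95% interval -1.03 to -0.59, limma adjusted p = 5.05e-06). *Mcm10* (ENSMUSG00000026669, chr2:4989714-5012791, minus strand) stood at 60.3, 62.6 and 57.7 CPM in siCtrl and at 40.5, 42.8 and 36.7 CPM in siAldoa. Its groups were 14.9 CPM apart, and 66.4% of the control mean remained (log2 fold change -0.58, SE 0.0831, limma adjusted p = 1.35e-05). *Cdc45*, the helicase subunit that joins at firing (ENSMUSG00000000028, chr16:18780447-18811987, minus strand), stood at 52.6, 58.5 and 58.7 CPM in siCtrl and at 43.4, 44.9 and 38.5 CPM in siAldoa. The first control and the second siAldoa library were only 7.69 CPM apart, the smallest gap of the 9 genes, and the log2 fold change was -0.41 (SE 0.0851, limma adjusted p = 0.000918). The call of *Cdc45* was lost in limma without replicate 2 (adjusted p = 0.0599) or replicate 3 (0.104) of both groups, and without a mean-variance trend (0.0512).

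**Figure D1:**
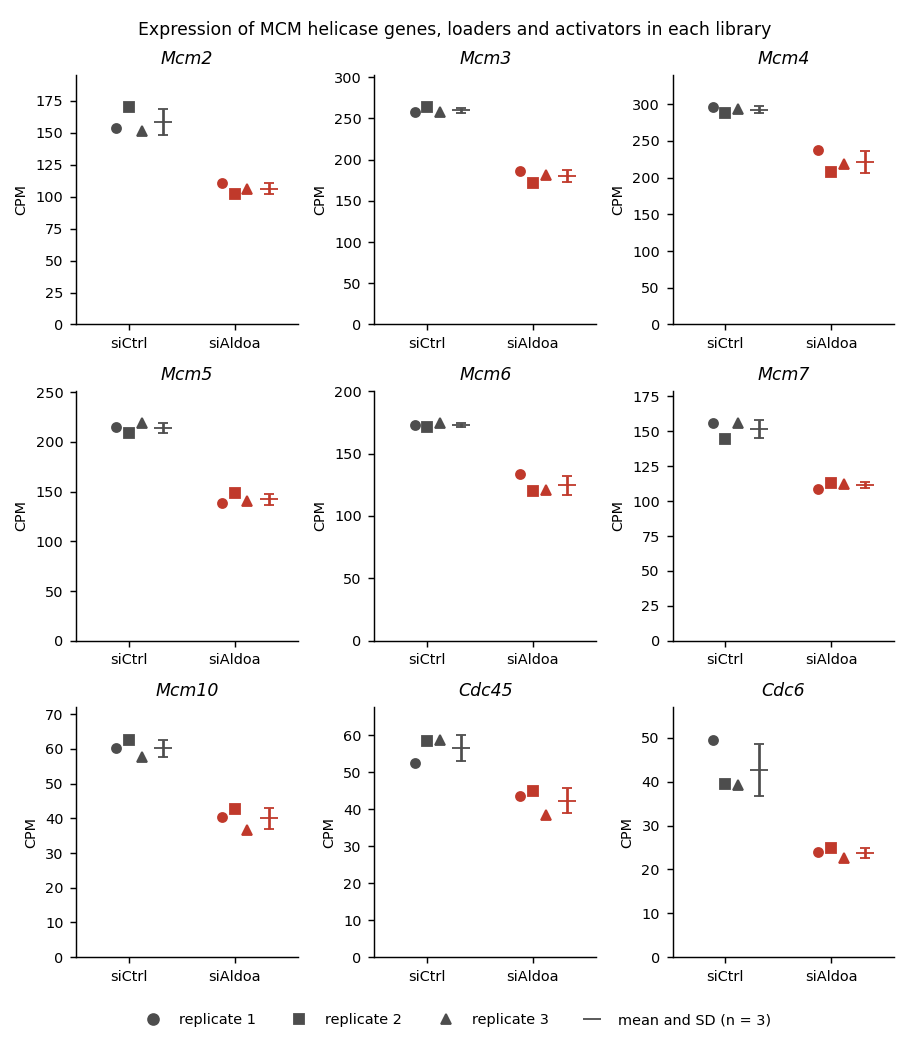
CPM (y axis, starting at 0) of the 9 genes in the 3 siCtrl (grey) and 3 siAldoa (red) libraries, with marker shape giving the replicate number and bars giving the mean ± SD (n = 3). In all 9 panels the red points lie below the grey ones. Each panel has its own y axis range. In CPM the gap is widest for *Mcm3* (71.0) and narrowest for *Cdc45* (7.69), and such gaps also depend on the level of the gene.

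Per kilobase of annotated exon, the levels of the genes covered a 3.57-fold range within the hexamer in siCtrl. *Mcm4* was the highest at 81.5 ± 1.24 CPM per kilobase, followed by *Mcm3* at 69.2 ± 0.902 and *Mcm5* at 53.6 ± 1.20 (SD, n = 3). *Mcm6* (36.8 to 37.3 CPM per kilobase) and *Mcm7* (32.6 to 35.2) came next and lay close together, and *Mcm2* was the lowest hexamer gene at 22.8 ± 1.44. *Cdc45* followed at 16.1 ± 0.996 CPM per kilobase, and *Cdc6* (7.49 to 9.48) and *Mcm10* (7.50 to 8.14) could not be ranked, since their libraries overlapped. In siAldoa the order of the levels was the same down to *Cdc45*. *Mcm10*, at 4.77 to 5.56 CPM per kilobase, then lay above *Cdc6*, at 4.31 to 4.75. Exon lengths join all annotated transcripts of a gene, which for *Mcm10* and *Mcm2* gave 7692 and 6956 bases, so levels per kilobase depend on the annotation.

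The balance within the group was compared as each gene's CPM in percent of the summed hexamer CPM of the same library. *Mcm4* took 23.7, 23.1 and 23.5% of the sum in siCtrl and 26.0, 24.1 and 24.8% in siAldoa, so its share was higher in every siAldoa library. The share of *Mcm2* was 12.3, 13.7 and 12.1% in siCtrl and 12.1, 11.9 and 12.1% in siAldoa, and here the groups were separate only in the second decimal (12.11 against 12.09%). *Cdc6* equalled 3.96, 3.16 and 3.13% of the hexamer sum in siCtrl and 2.62, 2.88 and 2.56% in siAldoa, a log2 ratio of -0.35. It was -0.23 without the first siCtrl library and up to -0.41 without another library. For the other 6 genes the groups overlapped. Each of the 3 separated shares had an exact two-sided permutation p of 0.1, the smallest possible, and 0.3 after Benjamini-Hochberg adjustment over the 9 genes. Since this test cannot pass the threshold with 3 libraries per group, it says nothing on whether the balance changed.

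**Figure D2:**
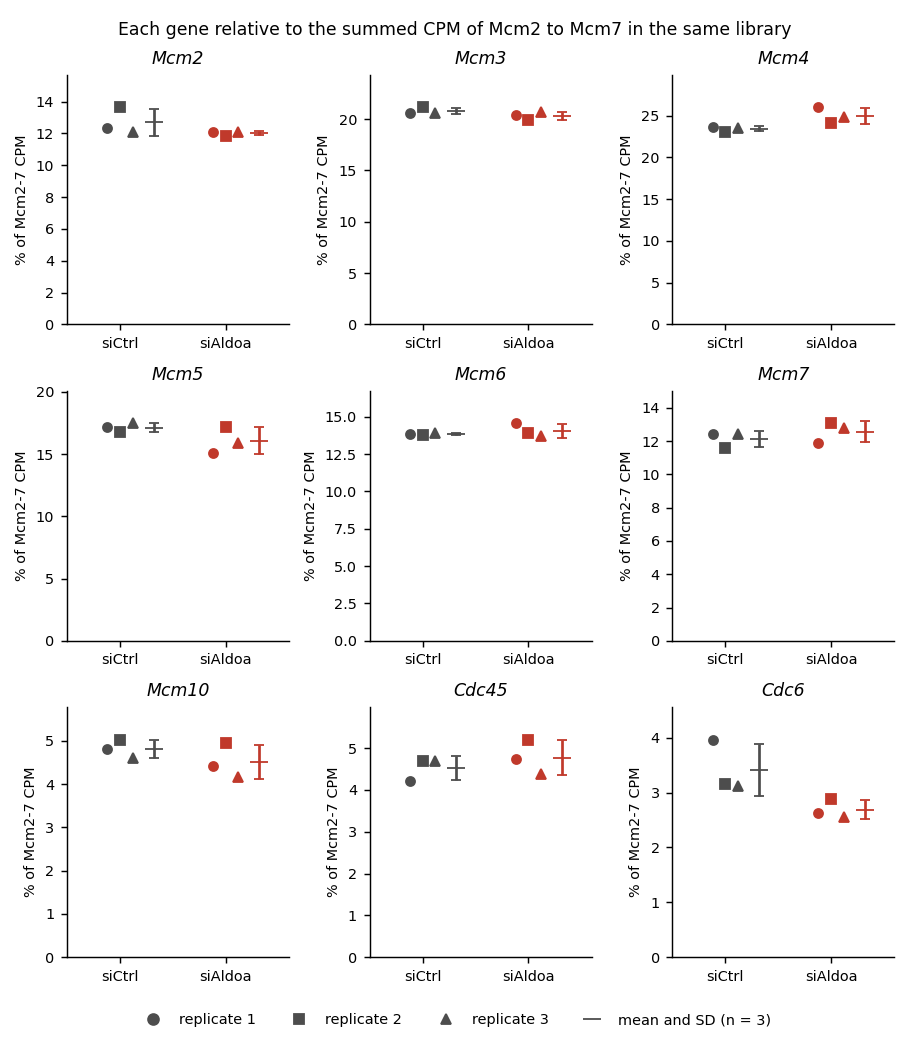
CPM of each gene in percent of the summed CPM of *Mcm2* to *Mcm7* in the same library (y axis, starting at 0), for 3 siCtrl (grey) and 3 siAldoa (red) libraries, with mean ± SD (n = 3). The groups overlap in 6 panels, while the *Mcm4* points are higher and the *Cdc6* and *Mcm2* points lower in siAldoa.

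The promoters of the genes were read from RefSeq (GRCm38.p6) over 250 bases before and 50 bases after each start, which was possible for 8 of the 9 genes; *Mcm4* was not in the promoter table. They were searched on both strands for E2F-type words (the word TTCCCGC, the word TTCGCGC, the word TTGCCGC or the word TTGGCGC), the CCAAT box (CCAAT), the GC box (GGGCGG), the cell cycle homology region (CHR, the word TTTGAA or the word TTCGAA) and the TATA box (TATAAA), with overlapping matches of a motif joined. An E2F-type word was present in 5 of the 8 genes (62.5%), namely *Mcm3*, *Mcm5*, *Mcm6*, *Mcm7* and *Cdc6*, against 17.7% of 11192 genes of the table with a promoter entry and 9.57% of all 32851 windows. The 200 bases before the start are shown for 6 genes as examples with and without such a word, 5′ to 3′ along the gene, with E2F-type words and CCAAT boxes (ATTGG where on the other strand) in capitals.
Mcm2, chr6:88898781-88898980, minus strand: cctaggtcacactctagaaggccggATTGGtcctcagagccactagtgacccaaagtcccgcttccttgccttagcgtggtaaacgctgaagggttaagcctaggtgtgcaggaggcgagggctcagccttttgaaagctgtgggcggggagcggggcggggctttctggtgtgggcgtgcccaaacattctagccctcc
Mcm3, chr1:20820313-20820512, minus strand: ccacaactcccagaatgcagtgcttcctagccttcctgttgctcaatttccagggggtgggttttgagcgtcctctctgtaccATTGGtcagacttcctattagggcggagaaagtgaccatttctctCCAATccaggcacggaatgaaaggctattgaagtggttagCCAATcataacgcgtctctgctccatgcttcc
Mcm5, chr8:75109309-75109508, plus strand: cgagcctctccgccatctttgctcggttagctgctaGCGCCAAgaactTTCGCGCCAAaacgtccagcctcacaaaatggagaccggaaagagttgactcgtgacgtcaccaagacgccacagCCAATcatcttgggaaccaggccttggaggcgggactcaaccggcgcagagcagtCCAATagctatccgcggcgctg
Mcm6, chr1:128359706-128359905, minus strand: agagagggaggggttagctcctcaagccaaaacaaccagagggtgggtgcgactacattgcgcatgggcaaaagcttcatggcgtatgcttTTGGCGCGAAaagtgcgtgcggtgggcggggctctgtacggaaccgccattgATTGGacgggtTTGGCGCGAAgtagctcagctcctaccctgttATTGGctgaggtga
Mcm7, downstream start, chr5:138171267-138171466, minus strand: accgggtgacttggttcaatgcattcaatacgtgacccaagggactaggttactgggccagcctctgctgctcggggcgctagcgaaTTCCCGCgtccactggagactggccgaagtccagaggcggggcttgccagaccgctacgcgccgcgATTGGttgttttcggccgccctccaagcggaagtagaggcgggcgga
Mcm10, chr2:5012792-5012991, minus strand: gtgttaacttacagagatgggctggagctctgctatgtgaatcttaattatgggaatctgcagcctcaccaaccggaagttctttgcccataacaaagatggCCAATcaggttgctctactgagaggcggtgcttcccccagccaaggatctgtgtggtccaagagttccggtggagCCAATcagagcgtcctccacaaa

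In these stretches *Mcm6* held a pair of E2F-type sites at -109 to -100 and -46 to -37, counted from the start as 0, each made of TTGGCGC overlapped by TTCGCGC on the other strand, with a CCAAT box between them. *Mcm5* held sites at -164 to -158 and -152 to -143. In *Mcm3* both sites lay after the start, at 19 to 25 and 39 to 48, outside the printed stretch, and *Mcm7* held sites in the windows of both its RefSeq starts. Those starts lie 539 and 1156 bases inside the GENCODE gene model, and all 250 bases before the first of them are annotated exon. *Mcm2*, *Mcm10* and *Cdc45* held no such word in the window, which says only that these letters were not found there. The single word of *Cdc6* lay at -138 to -132 from a RefSeq start that is 350 bases inside the GENCODE gene model, so it falls after the gene's annotated beginning.

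A CCAAT box was the most frequent word, found in 7 of the 8 genes (87.5%, all but *Cdc6*) against 43.0% of table genes and 37.4% of windows, and 6 of the 8 held at least 2, against 16.1% of table genes. The GC box was found in 6 of 8 (75.0%), against 63.0% and 35.7%, the CHR words in 3 of 8 (37.5%), against 17.4% and 19.2%, and the TATA word in *Cdc45* alone (12.5%), against 9.71% and 13.6%. Over all table genes with an entry, 15.5% of those with an E2F-type word and 9.72% of those without were called lower, and for the GC box these shares were 12.7% and 7.50%, so a higher share was not particular to the E2F-type word. Among the helicase genes the 5 with the word had a median log2 fold change of -0.53 and the 3 without one of -0.57. All of these genes were called lower, and a part of the word in the decrease was not tested.

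**Figure D3:**
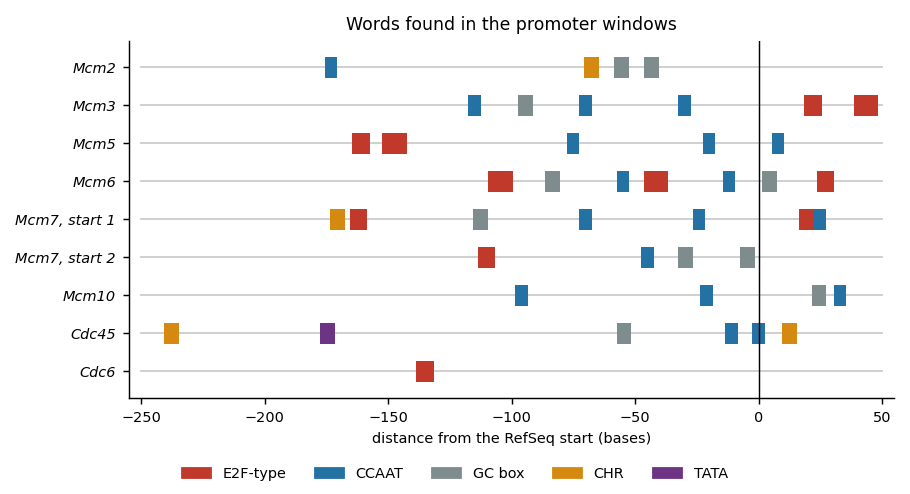
Positions of the words in the promoter windows of 8 genes (x axis, distance from the RefSeq start in bases, with *Mcm7* drawn for both of its starts), coloured by motif. E2F-type words (red) appear in *Mcm3*, *Mcm5*, *Mcm6*, *Mcm7* and *Cdc6*, and CCAAT boxes (blue) in all genes but *Cdc6*.

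Of the 9 genes, 3 start next to a gene on the opposite strand. *Mcm4* starts 466 bases from *Prkdc*, the catalytic subunit of the DNA-dependent protein kinase. *Prkdc* stood at 39.4, 47.1 and 42.6 CPM in siCtrl and at 44.8, 39.0 and 48.2 CPM in siAldoa. These values overlapped and no change of *Prkdc* was detected (log2 fold change 0.03, SE 0.0948, limma adjusted p = 0.875), with its sign turning under other settings. *Mcm7* starts 420 bases from *Ap4m1*, a subunit of an adaptor complex of vesicle transport, which stood at 23.3, 24.6 and 18.8 CPM in siCtrl and at 30.5, 25.7 and 22.8 CPM in siAldoa (log2 fold change 0.23, SE 0.131, limma adjusted p = 0.241). *Cdc45* starts 208 bases from *Ufd1l*, a cofactor of the Vcp segregase that takes part in helicase unloading, and here the neighbour was called lower too (107, 105 and 111 against 100.4, 94.9 and 89.3 CPM, log2 fold change -0.19, SE 0.0611, limma adjusted p = 0.0315). That call was lost without any single library except the first siAldoa library, with adjusted p up to 0.146.

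The ratio of the helicase gene to its neighbour in the same library fell in all 3 pairs without overlap, from 6.84 ± 0.700 to 5.06 ± 0.459 for *Mcm4* and *Prkdc*, from 6.94 ± 1.23 to 4.30 ± 0.693 for *Mcm7* and *Ap4m1*, and from 0.524 ± 0.0331 to 0.446 ± 0.0239 for *Cdc45* and *Ufd1l* (SD, n = 3, exact two-sided permutation p = 0.1 each, the smallest possible). These ratios reuse the values above, in which the 3 helicase genes were already lower without overlap, so they are a description. Ratios of other gene pairs were not compared. *Mcm7* and *Ap4m1* share 321 bases of exon and *Cdc45* and *Ufd1l* share 209. How strand was used in counting is not given in the sources used here, so reads in those bases are uncertain. *Cops6*, which overlaps the other end of *Mcm7*, stood at 94.5 to 96.0 CPM in siCtrl and 84.2 to 97.1 CPM in siAldoa (log2 fold change -0.05, limma adjusted p = 0.662). The microRNA genes *Mir25*, *Mir93* and *Mir106b* lie inside *Mcm7* and were not analysed here.

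**Figure D4:**
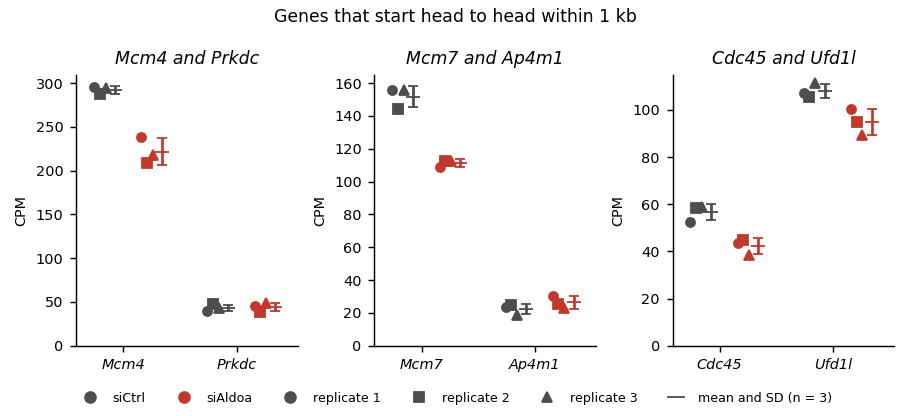
CPM (y axis, starting at 0) of *Mcm4*, *Mcm7* and *Cdc45* and of the gene that starts beside each on the opposite strand, in 3 siCtrl (grey) and 3 siAldoa (red) libraries, with mean ± SD (n = 3). The red points lie below the grey ones for the 3 helicase genes and for *Ufd1l*, while they overlap for *Prkdc* and *Ap4m1*.

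Some reads of these genes can also come from near-identical copies. *Cdc6* matches the gene model *Gm9430* over 1527 bases at 95.2% identity, and *Mcm4* matches *Gm9577* over 391 bases at 91.6%. Both copies were called lower as well, *Gm9430* at 7.48 to 15.1 CPM over all libraries (log2 fold change -0.66, limma adjusted p = 0.00717) and *Gm9577* at 43.3 to 69.8 CPM (-0.52, limma adjusted p = 3.63e-05). *Mcm7* and *Mcm6* match *Gm5487* (2157 bases, 97.7%) and *Gm15654* (299 bases, 94.98%), which were not analysed here. How reads were divided between such copies is not given in the sources used here.

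Other genes of licensing and origin firing fell in part. Over 10 lists with 110 measured genes of these processes and of the cell cycle, 43 were called lower and 4 higher. The counts of each list stand beside the shares over all genes given above, 10.0% lower and 10.4% higher, or 21.7% and 18.8% among genes at the level of the helicase group. Of the 6 origin recognition complex genes 2 were called lower and none higher (median log2 fold change -0.26). These were *Orc2*, at 19.4, 26.8 and 19.8 against 14.0, 14.4 and 14.4 CPM (log2 fold change -0.58, SE 0.144, limma adjusted p = 0.0052), and *Orc6*, which fell by 0.26 on the log2 scale (limma adjusted p = 0.00991). *Orc1*, the largest subunit of the complex, had a log2 fold change of -0.52 at a low level of 3.24 to 7.67 CPM and did not pass (SE 0.238, limma adjusted p = 0.141). Of the 12 genes in the list of GINS, origin firing and fork proteins 6 were called lower and none higher (median -0.26). The lowest were *Timeless* (-0.69, limma adjusted p = 3.98e-06) and *Wdhd1* (-0.65, limma adjusted p = 1.86e-05), both of which travel with the moving helicase, and *Gins1*, a GINS subunit (-0.49, limma adjusted p = 0.00612). The other calls, named only to complete the count, were *Tipin* and *Clspn*, also of fork proteins, and *Mtbp*, of a firing factor. The call of *Orc2* was lost without the second siCtrl library (adjusted p = 0.0607), that of *Gins1* likewise (0.0525), and that of *Orc6* without any of 3 libraries (the third siCtrl and the first and second siAldoa library, up to 0.0812).

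Neither *Cdc7* nor *Cdk2*, of the kinases that switch on licensed origins, was called. *Cdc7* stood at 58.1, 51.7 and 53.4 CPM in siCtrl and at 51.8, 44.6 and 49.0 CPM in siAldoa, with overlapping groups (log2 fold change -0.16, limma adjusted p = 0.183). Its activator *Dbf4* had a log2 fold change of -0.06 (SE 0.0569, limma adjusted p = 0.54). *Cdk2* had a log2 fold change of -0.17, and its siAldoa libraries lay below its siCtrl libraries (limma adjusted p = 0.117). The cyclin gene *Ccne2* was not called either (-0.28, limma adjusted p = 0.323). In this list of 6, *Ccne1* (-0.45, limma adjusted p = 0.000745) and *Ccna2* (-0.23, limma adjusted p = 0.00389), the cyclins that drive Cdk2 at the G1/S border and in S phase, were called lower and no gene was called higher (median -0.20). Geminin, the inhibitor of Cdt1, is encoded by *Gmnn*, which stood at 31.0, 34.7 and 28.0 CPM in siCtrl and at 24.3, 22.5 and 22.8 CPM in siAldoa (-0.41, SE 0.112, limma adjusted p = 0.00994). With *Dtl* (-0.43, limma adjusted p = 2.2e-05), the substrate receptor through which Cdt1 is degraded in S phase, and *Ccnf* (-0.34, limma adjusted p = 0.0041), a ubiquitin ligase subunit that acts on Cdc6, it was among 4 genes called lower of 11 in the licensing control list (median -0.08, none higher). *Gmnn* lost its call without the second siCtrl library (adjusted p = 0.0767) and *Ccnf* without the first siAldoa library (0.0513).

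Calls among the relatives of the hexamer genes and the unloading factors were as follows. *Mcm8*, a paralogue that works in recombination, was called lower (26.6, 28.2 and 27.0 against 18.6, 17.1 and 24.6 CPM, log2 fold change -0.44, limma adjusted p = 0.0185) as the only one of 6 genes in its list (median -0.09). Of 9 genes for helicase unloading, *Cul2* (-0.21), *Vcp*, the segregase itself (-0.21), and *Ufd1l* were called lower and *Faf1* higher (0.17), with a list median of -0.19. The calls of *Mcm8*, *Cul2* and *Faf1* were each lost when single libraries were left out (5, 5 and 3 of the 6 libraries, with limma adjusted p up to 0.13, 0.21 and 0.131).

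A list of 18 held E2F, pocket protein and MuvB genes, which include the regulators of the helicase genes, and also *Myc*. Of these 18 genes 6 were called lower and 1 higher (median -0.10), with *Myc* among the 6 (-0.29, limma adjusted p = 0.000404). *E2f1*, an activating member, stood at 64.9, 61.0 and 57.9 CPM in siCtrl and at 55.6, 48.4 and 52.6 CPM in siAldoa (log2 fold change -0.23, limma adjusted p = 0.0426). The call was lost without any single library except the first siAldoa library (adjusted p up to 0.191). The repressive members *E2f8* (-0.71, limma adjusted p = 0.000244) and *E2f7* (-0.62, limma adjusted p = 6.04e-05) and the activating *E2f2* (-0.82, limma adjusted p = 0.0143) were also lower, the last at only 3.67 to 10.4 CPM and without a call when any of 4 single libraries was left out (up to 0.104). *Tfdp2*, a dimerisation partner of the E2F proteins, was higher (0.54, SE 0.117, limma adjusted p = 0.00162). Of 5 CDK inhibitors, *Cdkn2c*, which encodes an inhibitor of Cdk4 and Cdk6, was lower (-0.43, limma adjusted p = 2.15e-06) and *Cdkn1a*, a target of p53, was higher (0.23, limma adjusted p = 0.00193). The call of *Cdkn1a* was lost without a mean-variance trend.

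Of 17 genes of S phase outside the helicase group 14 were called lower and none higher, with a median log2 fold change of -0.40. The lowest were *Ung*, a uracil DNA glycosylase (-1.13, limma adjusted p = 5.86e-07), *Uhrf1*, which maintains DNA methylation behind the fork (-1.12, limma adjusted p = 2.87e-11), and *Rrm2*, a ribonucleotide reductase subunit (-0.80, limma adjusted p = 7.06e-10). *Pcna*, the sliding clamp, stood at 175, 183 and 185 CPM in siCtrl and at 150.0, 148 and 158 CPM in siAldoa (-0.25, limma adjusted p = 0.00075). Of 20 genes of G2 and M phase, 4 were called lower and 1 higher, with a median of -0.09, and *Mki67*, a general proliferation marker, was at 324 to 325 CPM in siCtrl and 304 to 315 CPM in siAldoa (-0.08, limma adjusted p = 0.196). The genes of that list with calls, *Cdk1* being named only to complete the count after its value was seen, were *Ccnb2* (-0.40), *Kif23* (-0.21), *Cdc20* (-0.20), *Cdk1* (-0.18) and *Hmmr* (0.16), of which *Ccnb2*, *Kif23* and *Hmmr* each lost the call without any of 5 single libraries (limma adjusted p up to 0.124, 0.146 and 0.103). The difference between lists was not tested.

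The genes whose pattern over the 6 libraries lay closest to the mean pattern of *Mcm2* to *Mcm7* were sought among 10050 genes with a mean of at least 10 CPM, by the root mean square distance of centred log2(CPM + 1) values. The closest was *Odc1*, ornithine decarboxylase of polyamine synthesis, at 364, 368 and 363 CPM in siCtrl and at 259.9, 246 and 249.5 CPM in siAldoa (distance 0.0189). It was followed by the processed pseudogene *Gm5846* (0.0265), the homeobox gene *Rhox5* (0.0283), *H2afz*, which encodes the histone variant H2A.Z (0.0290), and *Tfrc*, the transferrin receptor (0.0295). Of the helicase genes themselves *Mcm3* lay nearest to that mean pattern (0.0266) and *Cdc6* farthest (0.195). The hexamer genes are part of that mean and *Cdc6*, *Mcm10* and *Cdc45* are not, so their distances are not alike. The distances rest on a single contrast of 3 against 3 libraries and are a description.

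**Figure D5:**
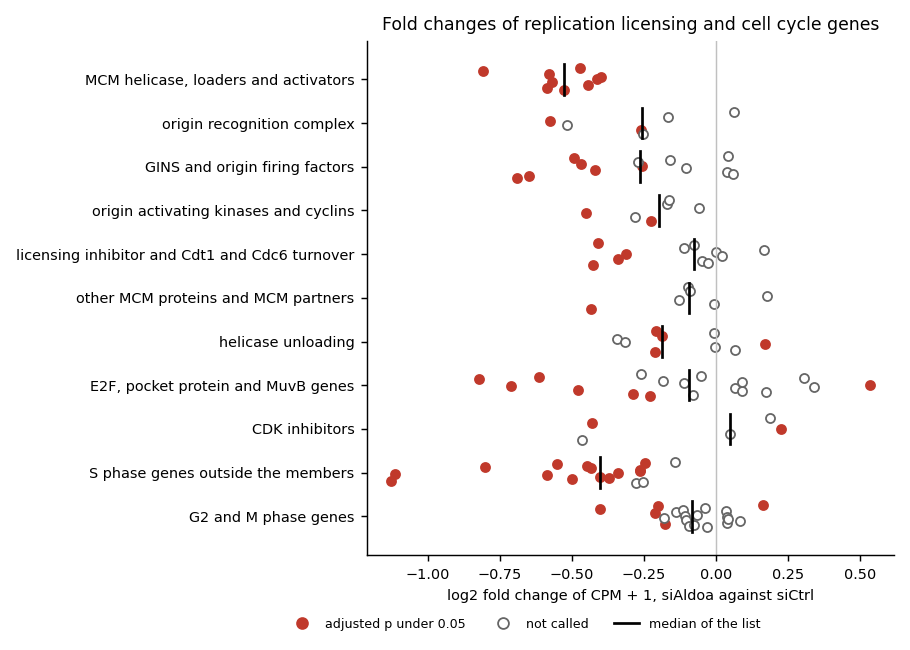
Log2 fold change of CPM + 1 in siAldoa against siCtrl (x axis) for the genes of the helicase group and of 10 lists (rows), with filled red points for an adjusted p under 0.05 by limma, open points for the rest and a black line at the list median. The helicase genes lie between -0.81 and -0.40 with no open point and a median of -0.53. The medians of the 10 lists run from -0.40 in the S phase list to 0.05 in the CDK inhibitor list.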

How the data were processed

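Poly(A) RNA of NIH/3T3 cells was sequenced as directional libraries (3 siCtrl, 3 siAldoa). Per the methods of the study and the submitters' processing notes, reads were demultiplexed with bcl2fastq, aligned to mm10 with Bowtie2 2.2.7, randomly subsampled to equal depth and counted per gene with GenomicAlignments, and genes with fewer than 12 reads over all samples were removed. The annotation release, the counting settings for strand and the handling of reads that match several places are not given in the sources used here. ERCC RNA was added to the lysis buffer for replicate 1 and after extraction for replicates 2 and 3. The authors deposited CPM, counts scaled to an effective library size, which were used as given. A table of the authors' own comparison (log2 fold change, mean level, p and adjusted p) was not used.

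Within a library the CPM were multiples of its lowest value above 0 (100.0% within a tolerance of 0.01), which was taken as 1 read, and totals ran from 3692341 to 3771129. Of the 18001 genes, 1834 genes still had fewer than 12 recovered reads over all libraries. The main test was limma 3.58.1 (R 4.3.3, mean-variance trend) on log2(CPM + 1) across all 18001 genes with Benjamini-Hochberg adjustment and a threshold of 0.05; fold changes on this scale slightly understate changes of low genes. edgeR 4.0.16 (quasi-likelihood) and DESeq2 1.42.0 on recovered reads, other pseudocounts, filters and scalings, a replicate block and left-out libraries were alternatives. Scripts were tested on simulated data. Single values were compared by exact two-sided permutation tests.

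The members and gene lists were chosen with earlier results of these data known. Named were all members, *Aldoa*, in each list the 3 lowest and 2 highest called genes without overlap between groups, 8 genes chosen for their role (*Gmnn*, *Cdc7*, *Dbf4*, *Orc1*, *Orc6*, *E2f1*, *Pcna*, *Mki67*), neighbours by position and the 5 closest patterns. *Cdk1*, *Tipin*, *Clspn*, *Mtbp* and *Myc* were named only to complete or explain a count, and *Cdk2* and *Ccne2* only to complete their list. Gene positions are those of GENCODE vM21 (GRCm38, the build of mm10), in which 17932 genes of the table were found. Copies were sought among transcripts at 90% identity over at least 200 bases. *Cdt1*, *Gins2*, *Skp1a*, *Hrob*, *E2f6*, *Cdkn1c*, *Cdkn2b* and *Tk1* were not analysed here, and protein sequences were not used.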

Additional observations from a re-analysis of the deposited data

How the results depend on the processing

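All 9 helicase genes kept their direction under the 20 alternatives run for each, and the number called lower was 9 except for 8 without a mean-variance trend (*Cdc45* lost) and 7 to 9 with replicates left out. The median of the 9 genes ranged from -0.56 to -0.49 (log2) with replicates left out and was -0.49 after quantile normalization, while the median of all genes moved by less than 0.1. Genes called lower and higher over the whole table, 1809 and 1867 in limma with a trend, were 616 and 824 without a trend and 1117 and 1066 in DESeq2, which gave an adjusted p for 11717 genes. With replicates left out they were 520 to 1371 and 494 to 1464, where fewer samples were fitted. Pathway genes called lower and higher (43 and 4) were 20 and 1 without a trend, and 30 and 2 in DESeq2. With replicates left out they were 17 to 37 and 0 to 4. Other causes were not tested. Of 30 called genes that were named from the lists by the rule, 22 lost the call under at least 1 alternative and 14 without a single library. Those that lost it without a mean-variance trend included *Cdkn1a*, *Pcna*, *Ccna2*, *Vcp* and *Cdc20*. In DESeq2 *Orc6*, *Gmnn*, *Mcm8*, *Cul2*, *Ufd1l*, *Faf1*, *E2f1*, *E2f2*, *Ccnb2*, *Kif23* and *Hmmr* were not called. Genes without a call turned sign: *Prkdc* to -0.0042 after quantile normalization and between -0.045 and 0.18 with replicates left out, *Cops6* between -0.095 and 0.012 and *Dbf4* between -0.13 and 0.021.

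For replicates 1 and 2 the check did not show that equal replicate numbers mark pairs. Over 10059 genes with a mean of at least 10 CPM, deviations from the group means correlated at 0.03, 0.01 and 0.13 for replicates 1, 2 and 3 (across genes, which are not independent), and the first siAldoa library correlated best with the second control (0.07). Replicate 3 of the 2 groups correlated best with each other, and negatively with replicates 1 and 2 of the other group (-0.046 to -0.094). Deviations from a group mean cancel out within the group, so the negative values are not a separate observation. With the replicate number as a block, limma called 1559 genes lower and 1611 higher, all 9 helicase genes lower (largest adjusted p = 0.00649) and 37 and 4 pathway genes. With the block in edgeR, 1659 and 1697 genes were called. Of the named genes *Ufd1l*, *E2f1*, *Cul2*, *Kif23* and *Ccnb2* were not called with the block in limma.

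Depth limits the low genes most: *Cdc6* rested on 86 to 181 reads per library. In each group replicates 1 and 2 differed by little more than counting noise (chi-square per degree of freedom 1.12 and 1.11, against 2.07 to 3.24 for pairs with replicate 3). Averaging them as 1 sample left 9 helicase genes called.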
